A study of Rattus norvegicus with 6 samples.

Results

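Transcripts of the contractile isoforms that distinguish fast from slow skeletal muscle fibres were read in bulk RNA of rat tail intervertebral discs. The genes were the fast and slow myosin heavy chains and troponins, named by symbol as Myh1, Myh2, Myh4, Myh7, Tnnt1, Tnnt3, Tnni1, Tnni2, Tnnc1 and Tnnc2. Of these 10 symbols, 9 were matched to a row of the count table, which holds 30562 genes. Myh1 was matched by no row, so its level was not analysed here. The 9 genes comprise 5 fast and 4 slow isoforms, and all 9 passed the filter on low counts.

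Skeletal muscle contracts when myosin heavy chain motors in the thick filament pull on actin, and the isoform of the heavy chain sets the speed of a fibre. The troponin complex on the thin filament gates this interaction. Troponin C binds calcium, troponin I holds the filament in the relaxed state and troponin T anchors both to tropomyosin, and each has a fast and a slow skeletal form encoded by separate genes. The disc itself is cartilage and fibrous tissue without muscle fibres, while muscles of the tail lie beside the vertebral column, so that these transcripts serve as a record of muscle in a disc library.

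The study asked how injection of AF-PTK@LEV@SPP1 acts on needle-punctured tail discs of male Sprague-Dawley rats aged 12 weeks, beside a control group. AF-PTK@LEV@SPP1 is a hybrid vesicle of liposomes and detoxified bacterial outer membrane vesicles, whose peptide for binding the annulus fibrosus sits on a linker that reactive oxygen species cut. It carries an siRNA against Spp1, described as designed for the mouse gene, and the first dose followed 24 h after surgery, with 10 μL per injection and 1 mg/kg of siRNA. Each group had 3 libraries, which the study assigns to 3 animals a group. The control discs, called Control here, were also punctured and received PBS by the study's description. That description gives a treatment period of 8 weeks and disc tissue. The sample records instead name untreated controls, 14 days and sorted macrophages.

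Control replicates 1, 2 and 3 held 17942989, 16565291 and 17489851 counts, and AF-PTK@LEV@SPP1 replicates 1, 2 and 3 held 17074981, 15560728 and 17855184. Control replicates 2 and 3 stood apart from every other pair. Their counts varied 1.33 times as much as counting noise, against 54.7 to 109 times for the 5 other pairs within a group. They were therefore counted as 1 sample, which leaves 2 distinct Control samples and 3 distinct AF-PTK@LEV@SPP1 samples. With 3 against 2 samples, a two-sided exact permutation test can reach no p below 0.1. The form used here doubles the smaller p of both directions, so its lowest possible p lies above 0.1.

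The tissue of the libraries was checked with marker genes. The most abundant transcripts were those of Col1a1 and Col1a2, the chains of type I collagen, with 4.70% and 3.14% of the counts on average. Sparc took 2.68%, and Col2a1, the collagen of cartilage and nucleus pulposus, took 2.22%. The 9 macrophage markers together had 412 to 1305 normalized CPM (counts scaled to library size and between libraries). The libraries thus read as disc tissue rather than as sorted macrophages, while no list of bone markers was read.

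All 9 fibre-type genes were detected in all 6 libraries, and 1 library held far more of them than the others. Their summed level was 606, 832 and 825 normalized CPM in Control replicates 1, 2 and 3. In AF-PTK@LEV@SPP1 replicates 1, 2 and 3 it was 537, 5496 and 1495. AF-PTK@LEV@SPP1 replicate 2 thus stood 7.66 times and replicate 3 stood 2.08 times above the Control mean, while replicate 1 lay below all 3 Control libraries, at 0.749 times that mean.

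As a share of all counts, the fibre-type genes took 0.0659%, 0.0782% and 0.0773% in Control replicates 1, 2 and 3. In AF-PTK@LEV@SPP1 replicates 1, 2 and 3 they took 0.0536% (exact Clopper-Pearson 95% interval 0.0525% to 0.0547%), 0.586% (0.582% to 0.590%) and 0.147% (0.145% to 0.149%). These intervals cover counting error only and are far narrower than the distances between the discs of the AF-PTK@LEV@SPP1 group. In bulk RNA, more or fewer muscle fibres and more or less RNA per fibre cannot be told apart.

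The adult fast myosin heavy chains carried most of this signal. Myh4, the heavy chain of the fastest (IIb) fibres, had 293, 414 and 419 normalized CPM in Control replicates 1, 2 and 3, and 286, 3183 and 728 in AF-PTK@LEV@SPP1 replicates 1, 2 and 3. Replicates 2 and 3 of the treated group lay above every Control library and replicate 1 just below them, so the groups overlapped. AF-PTK@LEV@SPP1 over Control gave a log2 fold change of 1.97 with a standard error of 1.06, and edgeR an adjusted p of 0.305, which reflects the spread between samples. Myh2, the heavy chain of oxidative fast (IIa) fibres, had 40.9, 86.5 and 85.8 normalized CPM in Control and 18.3, 310 and 41.4 in AF-PTK@LEV@SPP1. Here the high value of replicate 2 was the only one above the Control range. The log2 fold change of 0.94 had a standard error of 1.24 (edgeR, adjusted p = 0.665), and without AF-PTK@LEV@SPP1 replicate 2 it turned to -1.10 (edgeR, adjusted p = 0.351).

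The row named Myh4 calls for care. In the authors' table, whose header names no genome build, it runs on chromosome 10 from 51885913 to 51946295, a span of 60383 bases, against 26499 bases for Myh2 from 51856738 to 51883236. Only 2676 bases and 0 rows separate both genes in the table, whereas in the GRCr8 gene order Myh1, the heavy chain of IIx fibres, lies between them. Whether reads of Myh1 were counted in the row of Myh4 was not tested. The heavy chain genes also resemble each other closely in sequence, and the division of shared reads among them is uncertain.

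Slow myosin was present at a much lower count. Myh7, the heavy chain of slow fibres and of the heart ventricle, had 219, 199 and 213 counts in Control and 135, 945 and 620 in AF-PTK@LEV@SPP1. This corresponds to 11.2, 12.8 and 13.0 normalized CPM in Control and to 7.93, 57.0 and 35.3 in AF-PTK@LEV@SPP1. The order of the libraries was that of Myh4, with treated replicate 1 lowest and replicate 2 highest, and the groups overlapped (log2 fold change 1.46 with a standard error of 0.79, and in edgeR an adjusted p of 0.306).

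Troponin genes of fast fibres followed Myh4. Tnnt3, the fast troponin T that ties the complex to tropomyosin, had 118, 152 and 148 normalized CPM in Control and 103, 848 and 294 in AF-PTK@LEV@SPP1. Tnni2, the fast inhibitory subunit, had 45.1, 49.4 and 42.8 in Control and 42.4, 367 and 125 in AF-PTK@LEV@SPP1. Tnnc2, the fast calcium sensor, had 78.4, 86.1 and 88.8 in Control and 70.1, 669 and 227 in AF-PTK@LEV@SPP1. In each of the 3 genes the Control libraries lay close together, treated replicate 1 lay below them, and treated replicates 2 and 3 lay above. The log2 fold changes were 1.62 for Tnnt3, 1.96 for Tnni2 and 1.95 for Tnnc2, with standard errors of 0.88, 0.91 and 0.94 and in edgeR adjusted p of 0.309, 0.248 and 0.262. The span of Tnnc2, on chromosome 3 from 153513271 to 153516029, overlaps the end of Ube2c on the other strand, which had 40 to 259 counts per library, and whether reads were shared was not tested.

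The slow troponins showed a smaller excess in treated replicate 2. Tnnt1, the slow troponin T, had 7.49, 11.4 and 11.2 normalized CPM in Control and 4.11, 26.3 and 19.5 in AF-PTK@LEV@SPP1. Tnni1, the slow inhibitory subunit, had 6.57, 11.6 and 8.48 in Control and 2.53, 19.3 and 12.5 in AF-PTK@LEV@SPP1. Tnnc1, the calcium sensor of slow fibres and of heart, had 5.80, 8.87 and 7.93 in Control and 3.11, 16.5 and 12.4 in AF-PTK@LEV@SPP1. All 3 were lowest in treated replicate 1 and highest in treated replicate 2, and again the groups overlapped. Their log2 fold changes were 0.81, 0.45 and 0.58 for Tnnt1, Tnni1 and Tnnc1 (standard errors 0.75, 0.79 and 0.68, and in edgeR adjusted p of 0.535, 0.753 and 0.630), and that of Tnni1 turned to -0.15 without AF-PTK@LEV@SPP1 replicate 2.

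**Figure D1:**
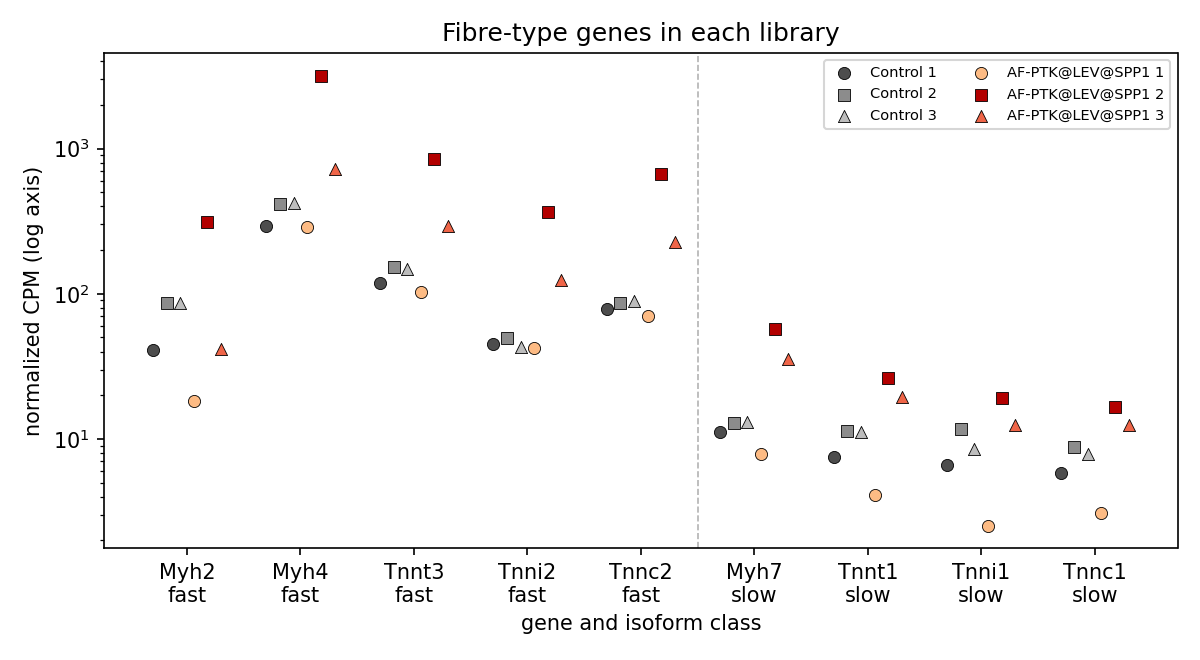
Normalized CPM (log axis) of the 9 fibre-type genes, 1 point per library, with fast isoforms left and slow isoforms right of the dashed line. AF-PTK@LEV@SPP1 replicate 2 is the highest and AF-PTK@LEV@SPP1 replicate 1 the lowest library for all 9 genes, and the Control libraries lie between them.

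No difference between the groups passed the test for any of these genes. In edgeR's quasi-likelihood test over 15537 genes, at an adjusted p under 0.05, 0 of the 9 fibre-type genes were called higher and 0 lower, against 1.13% (175 genes) and 2.57% (400 genes) of all genes tested. At an unadjusted p under 0.05, 0 of the 9 passed in edgeR, against 3941 of the 15537 genes tested. In limma-voom 0 of the 9 passed and in DESeq2 3, where the shares of all genes are not given here. Neither limma-voom nor DESeq2 called any of the 9 after adjustment. With all 6 libraries kept as separate samples, 8.20% of genes were called higher and 9.93% lower, and of the 9 fibre-type genes again 0 were. A p that misses the threshold does not show that the groups were alike, and the median log2 fold change of the 9 was 1.46, against 0.05 over all genes tested. Without AF-PTK@LEV@SPP1 replicate 2 the 9 values ran from -1.10 (Myh2) to 0.87 (Tnni2) with a median of 0.51, that of Myh4, so that much of the difference rested on that library.

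The ranges of the groups overlapped for all 9 genes, while 21.8% of the genes tested were higher and 20.1% lower in the AF-PTK@LEV@SPP1 libraries without overlap. Two-sided exact permutation tests over the distinct samples gave p from 0.6 to 1.0 for the 9 genes. The spread lay within the treated group. Its highest library exceeded its lowest 5.30-fold for Tnnc1 to 17.0-fold for Myh2, with a median of 8.26-fold for the 9 genes, against a median of 1.34-fold for all genes tested. The mean of the summed level was 3.498 times as high in AF-PTK@LEV@SPP1 as in Control, and 1.42 times without AF-PTK@LEV@SPP1 replicate 2.

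The composition of the muscle signal was then examined within each library, which removes its amount. Fast isoforms took 94.6% to 95.1% of the counts of the 9 genes in Control, and 96.7%, 97.8% and 94.7% in AF-PTK@LEV@SPP1 replicates 1, 2 and 3. No exon lengths were used here, so these are shares of reads and not of molecules. The fast genes summed to 0.763, 7.90 and 2.08 times the Control mean in treated replicates 1, 2 and 3, and the slow genes to 0.480, 3.23 and 2.16 times. In treated replicates 1 and 2 the sum of the slow genes was thus low relative to that of the fast genes, and in replicate 3 it was not. The slow sum of replicate 3 rested on Myh7, at 2.93 times the Control mean. Without Myh4 and Myh7, the most abundant gene of each class, the fast genes stood at 2.11 times and the slow genes at 1.79 times in replicate 3.

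For the myosin heavy chains, the fast share of counts (Myh2 and Myh4 against Myh7) was 96.7%, 97.5% and 97.5% in Control and 97.5%, 98.4% and 95.6% in AF-PTK@LEV@SPP1. For troponin T it was 94.0%, 93.0% and 93.0% in Control and 96.1%, 97.0% and 93.8% in AF-PTK@LEV@SPP1. In both pairs treated replicate 3 lay below at least 1 Control library, and the groups overlapped.

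For troponins I and C the groups did not overlap. The fast share of troponin I was 87.3%, 80.9% and 83.5% in Control, and 94.4% (exact 95% interval 92.5% to 95.9%), 95.01% (94.5% to 95.5%) and 90.9% (89.7% to 92.0%) in AF-PTK@LEV@SPP1. For troponin C it was 93.1%, 90.7% and 91.8% in Control and 95.7%, 97.6% and 94.8% in AF-PTK@LEV@SPP1. Every treated library lay above every Control library in these 2 of the 4 pairs, a separation that is common in these data, since the levels of 21.8% of the genes tested were higher and of 20.1% lower without overlap. The difference of the means was 8.68 percentage points for troponin I (93.4 ± 2.2 against 84.7 ± 3.6, SD, n = 3 and 2) and 3.88 points for troponin C (96.1 ± 1.4 against 92.2 ± 1.3). These shares are scores over genes chosen with results known, and their difference was not tested.

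**Figure D2:**
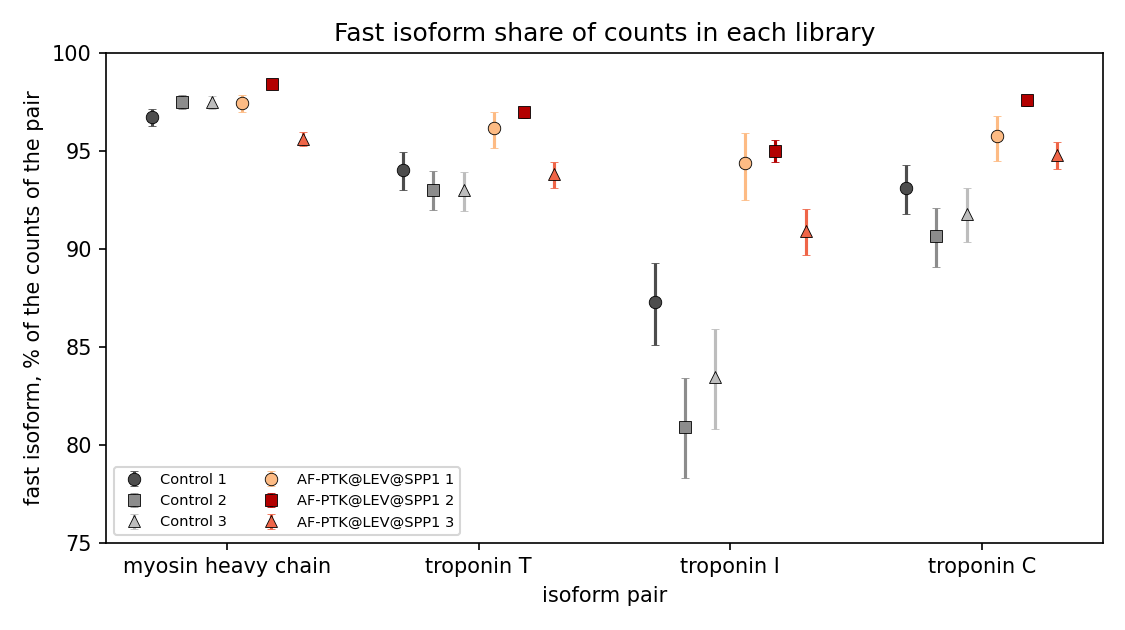
Fast isoform share, in percent of the counts of each isoform pair, with exact 95% intervals for counting error and 1 point per library (the axis starts at 75%). In troponin I the 3 AF-PTK@LEV@SPP1 libraries lie at 90.9% to 95.01% and the 3 Control libraries at 80.9% to 87.3%, whereas the myosin shares of the groups overlap.

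Within the fast myosins the balance of both genes also differed, a ratio that was chosen after its values were seen. Myh2 made up 12.3%, 17.3% and 17.0% of the counts of Myh2 and Myh4 in Control replicates 1, 2 and 3. In AF-PTK@LEV@SPP1 replicates 1, 2 and 3 it made up 6.003%, 8.87% and 5.39%. The treated libraries lay below all Control libraries, as did the levels of 20.1% of the genes tested, and the ratio rests on the Myh4 row, whose limits are given above. Without Myh4, the share of Myh2 against Myh7 was 78.5%, 87.1% and 86.8% in Control and 69.7%, 84.5% and 54.0% in AF-PTK@LEV@SPP1, where the groups overlapped.

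Some genes of immature muscle had a pattern unlike that of the adult isoforms, and others did not. Myh3, the embryonic heavy chain that muscle makes before birth and again in regenerating fibres, had 13.9, 37.3 and 40.7 normalized CPM in Control and 4.64, 17.1 and 2.05 in AF-PTK@LEV@SPP1. As a share of the counts of Myh2, Myh3, Myh4, Myh7 and Myh8, Myh3 took 3.87%, 6.78% and 7.29% in Control and 1.46%, 0.480% and 0.254% in AF-PTK@LEV@SPP1. Every treated library was thus below every Control library in this share, although in normalized CPM treated replicate 2 lay above Control replicate 1. The log2 fold change of Myh3 was -1.76 (edgeR, adjusted p = 0.294).

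Tnnt2, the troponin T of heart that embryonic and regenerating skeletal muscle also makes, had 3.64, 11.7 and 11.8 normalized CPM in Control and 0.764, 3.25 and 2.39 in AF-PTK@LEV@SPP1. It took 2.82%, 6.69% and 6.89% of the counts of the 3 troponin T genes in Control and 0.710%, 0.371% and 0.756% in AF-PTK@LEV@SPP1. Myog, the transcription factor that drives myoblast differentiation, had 0.257, 3.41 and 2.56 normalized CPM in Control and 0.352, 0.663 and 0.398 in AF-PTK@LEV@SPP1. Control replicate 1 was low for all 3 of these genes relative to the near-identical Control pair, and the log2 fold changes of Tnnt2 and Myog were -1.86 and -1.81 (edgeR, adjusted p = 0.195 and 0.306). Myh3 and Myog were singled out after their values were seen.

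Other muscle genes varied with the fibre-type genes from library to library. A gene that leads a list here is the one with the highest mean over all 6 libraries, which can rest on treated replicate 2 alone. Of the 8 other fast-fibre genes 7 were matched by symbol, and all 7 were highest in AF-PTK@LEV@SPP1 replicate 2, as 21.9% of all genes tested were, with 0 called and a median log2 fold change of 2.05. Their sum was 444 to 564 normalized CPM in Control and 430, 4840 and 1325 in AF-PTK@LEV@SPP1 replicates 1, 2 and 3. Atp2a1, the calcium pump of the fast sarcoplasmic reticulum, had 128, 176 and 183 in Control and 148, 1926 and 378 in AF-PTK@LEV@SPP1. Myl1, the essential light chain of fast myosin, had 164, 188 and 180 in Control and 135, 1353 and 463 in AF-PTK@LEV@SPP1. Both were highest in treated replicate 2 by a wide margin.

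The 7 other slow-fibre genes were mixed, with 4 highest in treated replicate 2, 0 called and a median log2 fold change of 1.11. Mybpc1, a myosin-binding protein of the thick filament, led the list only through treated replicate 2, with 108, 171 and 169 normalized CPM in Control and 70.7, 852 and 176 in AF-PTK@LEV@SPP1. Without it the list stood at 0.649, 0.866 and 0.830 times the Control mean in treated replicates 1, 2 and 3. Tpm3, a tropomyosin that non-muscle cells also make, had 263, 272 and 289 in Control and 170, 194 and 203 in AF-PTK@LEV@SPP1, and it weighs heavily in that remainder.

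Genes shared by all striated fibres showed the same library. All 15 matched sarcomere genes were highest in AF-PTK@LEV@SPP1 replicate 2, where their sum was 6.81 times the Control mean, against 0.964 and 1.75 times in replicates 1 and 3. Acta1, the actin of skeletal thin filaments, had 285, 344 and 355 normalized CPM in Control and 322, 3219 and 817 in AF-PTK@LEV@SPP1. The 12 genes of muscle membrane and calcium release, led by the release channel Ryr1, stood at 0.754, 6.03 and 1.53 times the Control mean in treated replicates 1, 2 and 3. The 11 matched genes of muscle energy metabolism, among them the creatine kinase Ckm, stood at 0.799, 7.604 and 2.11 times. The median log2 fold changes of these 3 lists were 1.41, 1.49 and 1.39, and 0 genes of any of them were called. Treated replicate 2 was the highest library for 10 of the 12 membrane genes and 10 of the 11 metabolism genes. Chrna1 and Musk of the membrane list, chosen after their values were seen, had log2 fold changes of -0.62 and -0.99. In that list 10 of the 12 values were positive.

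Further genes of immature muscle and of the myogenic program differed among themselves. Chrng, the gamma subunit of the fetal acetylcholine receptor, had 75.9, 97.9 and 96.7 normalized CPM in Control and 61.5, 66.5 and 64.3 in AF-PTK@LEV@SPP1. Its treated libraries lay close together below all Control libraries, without the excess of treated replicate 2 (log2 fold change -0.44, and in edgeR an adjusted p of 0.139). Chrng had 1047 to 1585 counts per library, against 9 to 46 for Chrna1 of the membrane list. Whether the reads of Chrng came from muscle was not tested. Mef2c, a transcription factor that other cells also make, had 73.6, 51.0 and 45.9 normalized CPM in Control and 69.8, 108 and 60.4 in AF-PTK@LEV@SPP1. Here treated replicate 2 was the highest library, as it was for Myod1, Myf6 and Myh8, which were chosen after their values were seen and stood at 3.90, 3.92 and 2.72 times the Control mean in it. Myod1 and Myf6 encode transcription factors of the muscle lineage, and Myh8, the perinatal heavy chain, had only 5 to 15 counts per library. Pax7, the marker of muscle stem cells, had at most 3 counts in every library.

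Markers of other cell types were read beside the fibre-type genes. Of the 6 cardiac-specific genes, Nppa and Nppb, which encode natriuretic peptides of the heart, had at most 3 counts in all libraries, and 2 of the 6 could be tested. The sum of that list was led by Tnnt2 and was 4.67 to 12.8 normalized CPM in Control and 2.58 to 6.27 in AF-PTK@LEV@SPP1. Without Tnnt2 the direction was the opposite, at 1.74, 2.88 and 2.01 times the Control mean in treated replicates 1, 2 and 3, with Myh6, a heart myosin with 13 to 40 counts per library, as the most abundant gene. Smooth muscle was distributed differently from the fibre-type genes. Its 9 markers, led by Acta2, stood at 3.07 times the Control mean in treated replicate 1. In treated replicates 2 and 3 they stood at 1.03 and 1.05 times. Of the 9 markers 8 had a positive log2 fold change, and 1 was highest in treated replicate 2. Smtn stood at 0.706, 0.791 and 0.702 times in treated replicates 1, 2 and 3. Synpo2 stood at 2.53, 4.55 and 1.72 times, and both were chosen after their values were seen. Treated replicate 1 had the lowest summed level of the fibre-type genes.

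Markers of blood, nerve and fat were not all highest in the same treated library. The 6 matched erythroid genes, led by Hba-a1 (alpha globin), summed to 2389 to 3274 normalized CPM in Control and to 2504, 20546 and 14084 in AF-PTK@LEV@SPP1 replicates 1, 2 and 3. All 6 were highest in treated replicate 2. The 7 Schwann cell markers, led by the myelin gene Pmp22, stood at 1.52, 4.09 and 6.19 times the Control mean, with their highest value in treated replicate 3. The 8 adipocyte markers, led by the fatty acid carrier Fabp4, stood at 3.33, 5.12 and 2.49 times. Treated replicate 1, lowest in the fibre-type genes, thus lay above treated replicate 3. Control replicate 1 also held 761 normalized CPM of these markers, against 161 and 157 in Control replicates 2 and 3. None of the genes of these 3 lists was called, and their part in the level of the fibre-type genes was not tested.

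Markers of nucleus pulposus and cartilage, led by Col2a1, stood at 1.55, 1.05 and 1.58 times the Control mean in treated replicates 1, 2 and 3, and those of annulus and tendon, led by Col1a1, at 1.73, 1.22 and 1.49 times. Without Col2a1 the former stood at 1.65, 0.854 and 1.15 times, and single markers lay far apart, such as Tbxt at 9.49, 3.86 and 4.16 times and Matn3 at 0.544, 0.488 and 0.249 times, both chosen after their values were seen. Of the 10 annulus and tendon markers 7 had a positive log2 fold change. Tnc went the other way, at 0.237, 0.167 and 0.222 times, and was also chosen after its values were seen. Macrophage markers, led by Mrc1, stood at 0.379, 0.634 and 0.584 times and endothelial markers, led by Pecam1, at 0.662, 0.761 and 0.765 times. Of the skin epithelium markers 4 of 6 were matched by symbol (Trp63 is in the table as Tp63 and was not counted), and their sum, led by Dsp, which other cells also make, was 9.45, 3.23 and 3.21 times the Control mean, and 1.38, 1.26 and 1.503 times without Dsp. Called in edgeR in these lists were 1 of 10 annulus and tendon markers as higher (Chad) and 2 of 9 macrophage markers as lower (Cd68 and Cd14), named after their values were seen, against 1.13% higher and 2.57% lower of all genes tested.

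**Figure D3:**
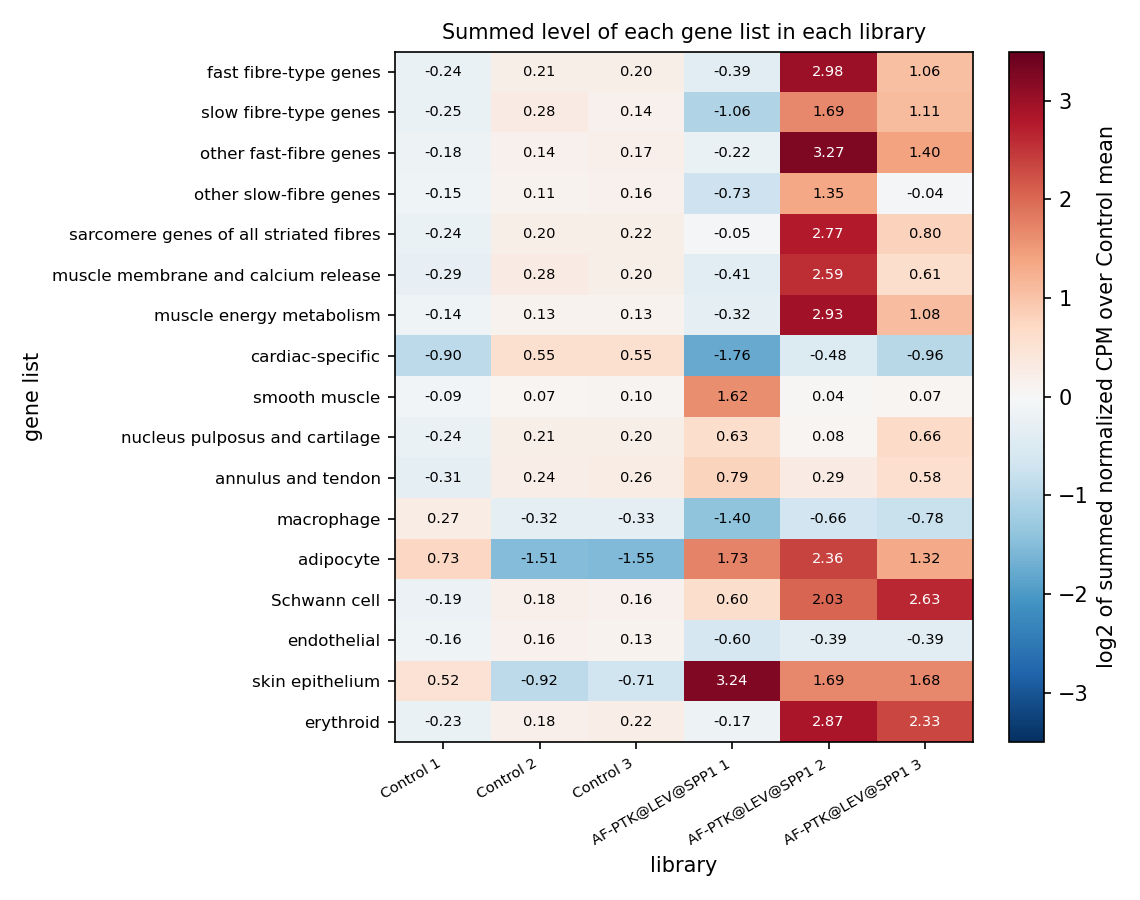
Summed normalized CPM of the gene lists reported here in each library, as log2 of its ratio to the Control mean (color scale and printed values). The adult muscle lists reach 1.35 to 3.27 in AF-PTK@LEV@SPP1 replicate 2, where the erythroid, adipocyte and Schwann cell lists are also high at 2.87, 2.36 and 2.03.

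Genes outside all lists were compared with the mean log2 level of the 9 fibre-type genes over the 5 distinct samples. Among 14108 genes with a mean of at least 1 normalized CPM, 13 reached a Pearson r of 0.99. The 8 most similar were Fzr1, a gene annotated as LOC108348213 (a dual specificity phosphatase), Iqgap2, Cmas, Ybx3, Spr, Gpcpd1 and Ccr1l1, with r from 0.998 to 0.994. The r describes the order and spacing of 5 samples dominated by 1 of them and has no p. The size of the difference was mostly modest, for instance 168, 213 and 215 normalized CPM of Ybx3, a cold shock domain protein, in Control and 150, 399 and 262 in AF-PTK@LEV@SPP1.

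Because the fibre-type genes varied together, their promoters were searched for short motifs in the 250 bases before the gene start. Sequences were taken from RefSeq (build GRCr8), in which 8 of the 10 symbols were matched, and Tnnt3 and Tnnc1 were not matched. Searched on both strands, the E-box CANNTG was found in 6 of the 8 and in 65.5% of all 33469 promoters, and its form CAGCTG, which CANNTG includes, in 2 (Myh4 and Myh7) and in 11.97%. TATAAA was found in 5 of the 8 and in 12.9% of all promoters. The MEF2 motif was found in 2 (Myh1 and Myh4) and in 2.96%, and the CArG motif in 1 (Myh4) and in 1.497%. These matches describe letters in a window and not the binding of a factor.

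The promoters of both fast myosins with data are shown because their balance differed between the libraries. They are on the plus strand, at chr10:52355489-52355738 for Myh2 and chr10:52421898-52422147 for Myh4, with capitals marking matches of TATAAA, of MEF2, of CArG and of CAGCTG, of which the MEF2 match of Myh4 overlaps a TATAAA match on the other strand. In both genes a TATAAA match lies shortly before the start, 30 bases upstream in Myh2 and 45 in Myh4, counted to its first base, and CAGCTG was found in Myh4 and not in Myh2.
Myh2: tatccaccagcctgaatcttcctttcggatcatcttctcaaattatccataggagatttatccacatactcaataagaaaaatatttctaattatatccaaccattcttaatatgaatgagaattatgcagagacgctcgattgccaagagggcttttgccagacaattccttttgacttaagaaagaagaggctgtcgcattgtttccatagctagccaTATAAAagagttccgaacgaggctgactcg
Myh4: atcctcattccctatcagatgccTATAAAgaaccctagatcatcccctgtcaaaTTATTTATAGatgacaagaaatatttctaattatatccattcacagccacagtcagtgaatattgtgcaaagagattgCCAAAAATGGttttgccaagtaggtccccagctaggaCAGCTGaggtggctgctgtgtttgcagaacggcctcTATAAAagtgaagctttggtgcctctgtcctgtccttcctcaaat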

How the data were processed

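The authors deposited counts, the whole number of reads per Ensembl rat gene in each library, without normalization. The submitters' processing notes name FastQC, Trimmomatic, HISAT2, featureCounts, DESeq2 and mm10, a mouse build, although the gene identifiers are those of rat. The use of strand is not given in the sources used here. Columns were matched to samples by group name and replicate number. Counts of Control replicates 2 and 3 were summed as 1 sample, and edgeR 4.0.16 in R 4.3.3 was run with TMM normalization, filterByExpr (minimum count 10), the quasi-likelihood test and Benjamini-Hochberg adjustment over all genes tested, at an adjusted p under 0.05. The script was tested on simulated counts. The standard error is the log2 fold change divided by the square root of F. Normalized CPM per library used TMM over the 6 libraries, means and SD took the near-identical pair as 1 sample, and 3 counts were taken as the floor, equal to 0.167 to 0.193 CPM, for counting error only. DESeq2 1.42.0 and limma 3.58.1 (voom) were alternatives, besides other normalizations, filters and left-out libraries. The fibre-type genes and the 18 gene lists were chosen with earlier results of these data known, and 8 listed names were matched by no row, of which Mylpf and Trp63 are in the table as Myl11 and Tp63 and were not counted. By the rule for names, named genes are the fibre-type genes, the leading genes of each list, markers at the floor and the 8 genes outside the lists most like the fibre-type genes. Other genes are named where the text says that they were chosen after their values were seen, or as a neighbour on the chromosome. The list of myogenic regulators and immature myosins is not reported here as a whole.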

Additional observations from a re-analysis of the deposited data

How the results depend on the processing

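In edgeR, 575 genes were called between AF-PTK@LEV@SPP1 and Control, against 2727 with all 6 libraries kept as samples and 2572 in DESeq2. Leaving out 1 library gave 0 to 566, with 0 without AF-PTK@LEV@SPP1 replicate 2 or replicate 3, 113 without AF-PTK@LEV@SPP1 replicate 1 and 280 without Control replicate 1, where the lone Control sample is assumed to vary like the other group. Without the summed Control pair, an alternative chosen after seeing the data, 3 genes were called. In all 18 alternative fits, 0 of the 9 fibre-type genes were called, and the lowest adjusted p in any of them was 0.0643 (edgeR). It was that of Myh7 without AF-PTK@LEV@SPP1 replicate 1, the library lowest for all 9 genes. In that fit 8 of the 9 passed at an unadjusted p under 0.05, and the share of all genes passing there is not given here. In the main edgeR fit 3941 of the 15537 genes tested passed at this threshold. Of 99 log2 fold changes of these genes under alternatives with all samples, 98 were positive. Myh2 ranged from -1.10 to 1.42 and Tnni1 from -0.15 to 0.89 with 1 library left out. With the replicate number as a block over the 6 libraries, 741 genes were called and Myh2 turned to -0.185, and 0 libraries correlated best with their own number (mean correlation -0.249 for the same and 0.111 for different numbers). The myosin fast share differed by 0.0363 percentage points between the groups, by -0.583 to 0.808 with 1 library left out, and by -13.3 without Myh4. The causes were not tested. Fast shares per exon length were not run.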
